A study of Mus musculus with 16 samples.

Results

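The genes described here are 27 genes of cholesterol synthesis and of its regulator SREBP2, taken by symbol from a list of textbook members, out of 24970 genes in a liver RNA-seq count table. All 27 were found, and all 27 passed the low-count filter that left 12913 genes for testing. The list holds the enzymes from acetoacetyl-CoA to cholesterol, the isoprenoid side enzyme Ggps1, the sterol carrier Stard4 and the SREBP2 regulators Srebf2, Scap, Insig1, Insig2, Mbtps1 and Mbtps2. Some enzymes of the route are not on the list and were not analysed here.

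Messenger RNA was measured in the livers of 16 mice in 4 groups of 4. Wild-type mice were of the strain C57BL/6 Ntac. The other strain, called humanized below, carried the human PXR, CAR and CYP3A4/3A7 genes, per the label PXR-CAR-CYP3A4/3A7. Each strain was given either vehicle, 2% DMSO in corn oil, or TCPOBOP, at 3 mg/kg in 2 administrations 24 h apart, with livers taken at 48 h. TCPOBOP is a strong activator of mouse CAR, the constitutive androstane receptor, which switches on drug-metabolising enzymes in hepatocytes and makes them proliferate. The labels do not state sex, age, feeding, time of day, litter or the genetic background of the humanized line. The humanized and wild-type mice may therefore differ in more than the humanized genes, and strain cannot be told apart from any such difference.

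Cholesterol is built from acetyl-CoA by way of mevalonate, the isoprenoid farnesyl diphosphate, squalene and the first sterol, lanosterol. SREBP2, encoded by Srebf2, is the transcription factor that drives most genes of this route. SCAP carries SREBP2 from the endoplasmic reticulum to the Golgi, where the proteases encoded by Mbtps1 and Mbtps2 release its active part, and INSIG proteins hold SCAP back when sterols are plentiful. The liver is a main site of cholesterol synthesis, and Insig1 and Srebf2 are themselves SREBP targets.

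RefSeq promoters of GRCm38.p6, the build also known as mm10, were available for 23 of the 27 genes as windows of 250 bases before to 50 bases after a start site. Fdps, Fdft1, Sqle and Stard4 were not in that table. SREBP2 is known to act on promoters together with NF-Y, which binds CCAAT boxes, so 4 motifs were searched on both strands, with none of them contained in another. CCAAT was present in 19 of the 23 genes (82.6%), against 43% of the 10226 tested genes in the table and 37.4% of all 32851 promoters. A gene was counted when any of its promoters matched, while the share of promoters is per single window. GGGCGG, the Sp1 box, was present in 20 (87%), against 66.8% of tested genes and 35.7% of all promoters. CACGTG, an E-box, was present in 5 (21.7%), against 11.8% and 7.15%. TCACNCCAC, a sterol regulatory element core, was present in 1 (4.35%), against 1.48% and 1.24%. The genes without a CCAAT match were Acat2, Scap, Mbtps1 and Mbtps2. A match describes letters in the window and not a bound site. Matches were exact, so a stretch that differs from the sterol element core by 1 base, as in the Srebf2 promoter, was not counted. The 250-base stretches before the start site are shown without the bases after it, chosen because they belong to Hmgcs1, the sole match of the sterol element core, to Lbr and Tm7sf2, which rose with TCPOBOP in wild-type liver, and to Srebf2 and Idi1, which were lower in humanized liver. Capitals mark CCAAT or its reverse complement ATTGG and, in Hmgcs1, the sterol element core TCACCCCAC.
Hmgcs1, chr13:119690101-119690350, plus strand: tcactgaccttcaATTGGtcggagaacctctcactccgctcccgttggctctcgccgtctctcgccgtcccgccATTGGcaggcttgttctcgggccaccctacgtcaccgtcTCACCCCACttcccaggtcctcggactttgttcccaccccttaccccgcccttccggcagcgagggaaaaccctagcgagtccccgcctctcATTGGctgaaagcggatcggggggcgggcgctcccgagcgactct
Lbr, chr1:181842402-181842651, minus strand: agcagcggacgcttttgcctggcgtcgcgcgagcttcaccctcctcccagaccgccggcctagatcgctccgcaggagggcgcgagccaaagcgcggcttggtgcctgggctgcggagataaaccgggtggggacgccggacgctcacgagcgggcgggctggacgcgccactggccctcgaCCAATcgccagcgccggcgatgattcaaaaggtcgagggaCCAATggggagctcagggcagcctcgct
Tm7sf2, chr19:6067851-6068100, minus strand: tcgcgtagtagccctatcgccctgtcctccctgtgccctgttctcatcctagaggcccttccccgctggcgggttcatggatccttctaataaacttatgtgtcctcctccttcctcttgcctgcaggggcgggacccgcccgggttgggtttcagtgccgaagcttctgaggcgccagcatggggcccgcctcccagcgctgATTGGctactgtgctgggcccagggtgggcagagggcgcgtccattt
Srebf2, chr15:82147019-82147268, plus strand: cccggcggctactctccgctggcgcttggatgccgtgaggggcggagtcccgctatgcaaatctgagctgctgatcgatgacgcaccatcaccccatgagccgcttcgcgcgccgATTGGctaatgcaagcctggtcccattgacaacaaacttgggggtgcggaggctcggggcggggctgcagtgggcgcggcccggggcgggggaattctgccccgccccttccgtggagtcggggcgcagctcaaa
Idi1, chr13:8885356-8885605, plus strand: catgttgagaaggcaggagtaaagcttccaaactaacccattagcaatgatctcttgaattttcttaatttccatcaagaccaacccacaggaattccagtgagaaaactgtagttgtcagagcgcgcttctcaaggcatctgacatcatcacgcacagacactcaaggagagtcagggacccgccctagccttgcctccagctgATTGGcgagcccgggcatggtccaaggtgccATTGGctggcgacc

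Library totals over all transcript entries ran from 11827994 to 19483951 counts in the wild-type vehicle, humanized vehicle and humanized TCPOBOP groups and from 30228724 to 37998473 in the wild-type TCPOBOP group, so 1 group was sequenced more deeply. The mouse CAR gene Nr1i3 averaged 100.3 CPM in wild-type and 2.2 CPM in humanized vehicle liver. The mouse PXR gene Nr1i2 averaged 136.5 and 19.0 CPM, so it was lower in humanized liver but still counted. Cyp2b10, the standard CAR target, rose 66.2-fold with TCPOBOP in wild-type and 6.04-fold in humanized liver (edgeR quasi-likelihood test, Benjamini-Hochberg adjusted p = 2.44e-07 and 0.00434). Alb, Ttr and the other hepatocyte markers summed to 24244 to 90317 CPM in every library, and pancreatic and adipocyte markers to at most 1.03 CPM. The libraries numbered 2 in both wild-type groups stood apart: across genes, their deviation from the group mean followed GC content with a Spearman rho of 0.67 and 0.65, against -0.54 to -0.28 in the other wild-type libraries. In the humanized TCPOBOP group, deviations followed transcript length in opposite directions, with rho of -0.45 and -0.33 in libraries 1 and 2 and 0.44 and 0.49 in libraries 3 and 4. With every library thinned to the smallest, the genes that passed numbered 5 for TCPOBOP in wild-type liver (5 unthinned), 0 in humanized liver (0), 1 for the interaction (2), 9 for the strains under vehicle (9) and 19 for the strains under TCPOBOP (20).

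Levels below are counts scaled to a fixed library total by the TMM method (CPM), with any mean ± SD over n = 4 mice, and differences are log2 values ± SE from 1 edgeR fit over all 16 libraries. A gene is said to rise or fall where its Benjamini-Hochberg adjusted p over all 12913 genes was under 0.05. Per kilobase, for the 26 genes whose counted entry matched a GENCODE transcript, mean levels in wild-type vehicle liver were high for Insig1 (273 CPM per kb) and for Hmgcs1, the synthase that makes HMG-CoA (184 CPM per kb). The place of Insig2 depended on the transcript taken, at 292 CPM per kb with 1292 bases and 140.1 CPM per kb with the longest one of 2697 bases. Among the 26 genes, levels were lowest for Mbtps2 (2.04 CPM per kb), Lbr (4.56 CPM per kb) and Idi1 (4.96 CPM per kb). Ggps1, the gene without a matched entry, was not ranked. It averaged 9.23 CPM in wild-type vehicle liver, and its longest coding transcript has 4244 bases, so it is also a low one. Of the 27 genes, 22 had their highest group mean in wild-type TCPOBOP liver, and 25 had their lowest in humanized liver, 11 under vehicle and 14 under TCPOBOP. The same ranking was not counted over all genes tested. The map of all 27 genes by library shows these levels relative to wild-type vehicle liver.

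**Figure D1:**
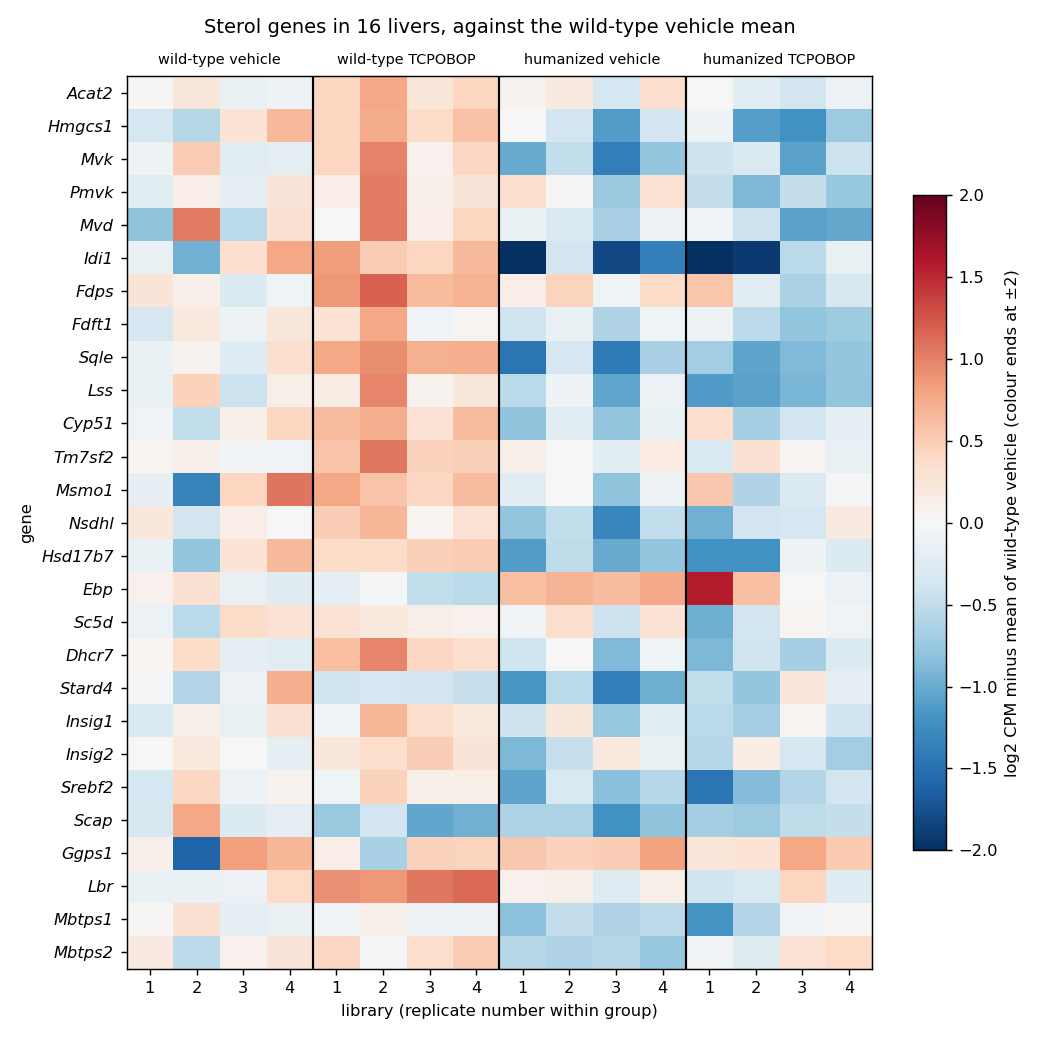
Each cell is the log2 CPM of 1 gene (rows) in 1 library (columns, by replicate number within the 4 groups) minus the mean of the 4 wild-type vehicle libraries, with colour from blue (lower) to red (higher) ending at ±2. Of the 27 genes, 22 have their highest group mean in the wild-type TCPOBOP columns, a ranking not counted over all genes. Ebp is highest in humanized library 1 under TCPOBOP, and wild-type vehicle library 2 departs from its group in both directions.

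In wild-type liver, TCPOBOP raised 4 of the 27 genes and lowered 1. Fdps, Sqle, Tm7sf2 and Lbr, enzymes from the middle and end of the route, rose 1.58- to 1.97-fold, and Scap, the SREBP escort, fell 1.78-fold. Of all genes tested, 13.1% changed in this comparison, 8.1% upward and 4.99% downward, against 18.5%, 14.8% and 3.7% of the 27. The median log2 difference of the 27 was 0.35, against -0.02 over all genes tested, and 22 of the 27 were above 0. In 6 genes every treated mouse was above every control and in 1 every treated mouse was below, where 20.9% of all genes tested had no overlap, and 8 had an unadjusted p under 0.05, where 25.1% did. Most of the differences were small and did not pass. In the same mice 2 of 6 hepatocyte markers fell, Alb by 1.56 and Ttr by 0.72. The 6 summed to 24244 to 37834 CPM under TCPOBOP against 54101 to 90317 CPM under vehicle, and Alb alone averaged 16881 and 49738 CPM. Their part in the sterol gene result was not tested, and in bulk liver fewer cells of a type and less RNA per cell cannot be told apart.

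Fdps (chr3:89093588-89101967, GRCm38.p6) makes farnesyl diphosphate, the last isoprenoid common to sterols and prenyl groups. Its levels were 194, 174, 133 and 152 CPM under vehicle and 295, 366, 249.6 and 261 CPM under TCPOBOP, without overlap. The difference was 0.84 ± 0.23 on the log2 scale (adjusted p = 0.0184). Leaving out wild-type vehicle library 3, TCPOBOP library 2, or both wild-type libraries numbered 2 ended the call, with adjusted p up to 0.0665. The other mevalonate enzymes did not pass: log2 differences were 0.48 for Acat2, 0.46 for Hmgcs1, 0.49 for Mvk, 0.42 for Pmvk, 0.27 for Mvd and 0.48 for Idi1, the isomerase that makes dimethylallyl diphosphate. Ggps1, which makes geranylgeranyl diphosphate, was at -0.09 ± 0.35. Hmgcs1 varied widely under vehicle, at 472, 407, 728 and 946 CPM, against 812, 1013, 775 and 909.9 CPM under TCPOBOP, so these groups overlapped.

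Sqle (chr15:59315092-59331193) encodes squalene epoxidase, the first oxygen-requiring and a rate-limiting step of sterol synthesis. It stood at 148, 169.7, 136 and 202 CPM under vehicle and at 278, 308, 266 and 268 CPM under TCPOBOP, every treated mouse above every control. The difference was 0.77 ± 0.22 (adjusted p = 0.0246), and leaving out wild-type vehicle library 1 or 3, TCPOBOP library 2 or 4, or both libraries numbered 2 ended the call, with adjusted p up to 0.083. Its neighbours in the route, the squalene synthase gene Fdft1 and the lanosterol synthase gene Lss, differed by 0.27 ± 0.21 and 0.37 ± 0.24 and did not pass.

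Tm7sf2 (chr19:6062821-6067850) and Lbr (chr1:181815315-181842401) both encode sterol C14 reductases, and LBR is also a protein of the inner nuclear membrane that binds lamin and chromatin. Tm7sf2 was at 144, 149.9, 136 and 133 CPM under vehicle and 209, 292, 193 and 196 CPM under TCPOBOP, a difference of 0.66 ± 0.17 (adjusted p = 0.0144) that did not pass without TCPOBOP library 2 (adjusted p = 0.0616). Lbr was at 14.4, 14.5, 14.6 and 20.6 CPM under vehicle and 29.8, 28.8, 33.0 and 34.5 CPM under TCPOBOP. Its difference of 0.98 ± 0.19 (adjusted p = 0.00189) was the largest of the 27 and passed in 26 of 26 other settings. Lbr also moved beside the 12 proliferation genes of a separate list, Mki67 and Rrm2 among them, of which 12 of 12 rose in the same mice (median log2 difference 3.04). Their part in the Lbr result was not tested. The remaining enzymes after lanosterol did not pass. They were Cyp51 at 0.54, Msmo1 at 0.35, Nsdhl at 0.37, Hsd17b7 at 0.33, Ebp at -0.30, Sc5d at 0.13 and Dhcr7, a reductase at the end of the route, at 0.59 (adjusted p = 0.0873).

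Scap (chr9:110333288-110384949) was the sole regulator to change, and it fell. Its levels were 176, 376, 181 and 193 CPM under vehicle and 131, 169, 107 and 113 CPM under TCPOBOP, with library 2 the highest in each group. The difference was -0.83 ± 0.23 (adjusted p = 0.0226). Without vehicle library 2 the call was lost and the difference shrank to -0.50, and it was also lost without TCPOBOP library 3 or 4 and in a fit of these 2 groups alone. Without both libraries numbered 2 the call held. Srebf2 itself (chr15:82147269-82205379) was at 65.4, 111, 77.2 and 87.7 CPM under vehicle and 78.8, 115, 89.5 and 90.5 CPM under TCPOBOP, a difference of 0.13 ± 0.23 with a 95% interval from -0.36 to 0.62. Insig1, a sensitive SREBP target, differed by 0.30 ± 0.23 and Insig2 by 0.33 ± 0.22, neither past the test. Mbtps1, Mbtps2 and Stard4 were at -0.06, 0.30 and -0.47.

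**Figure D2:**
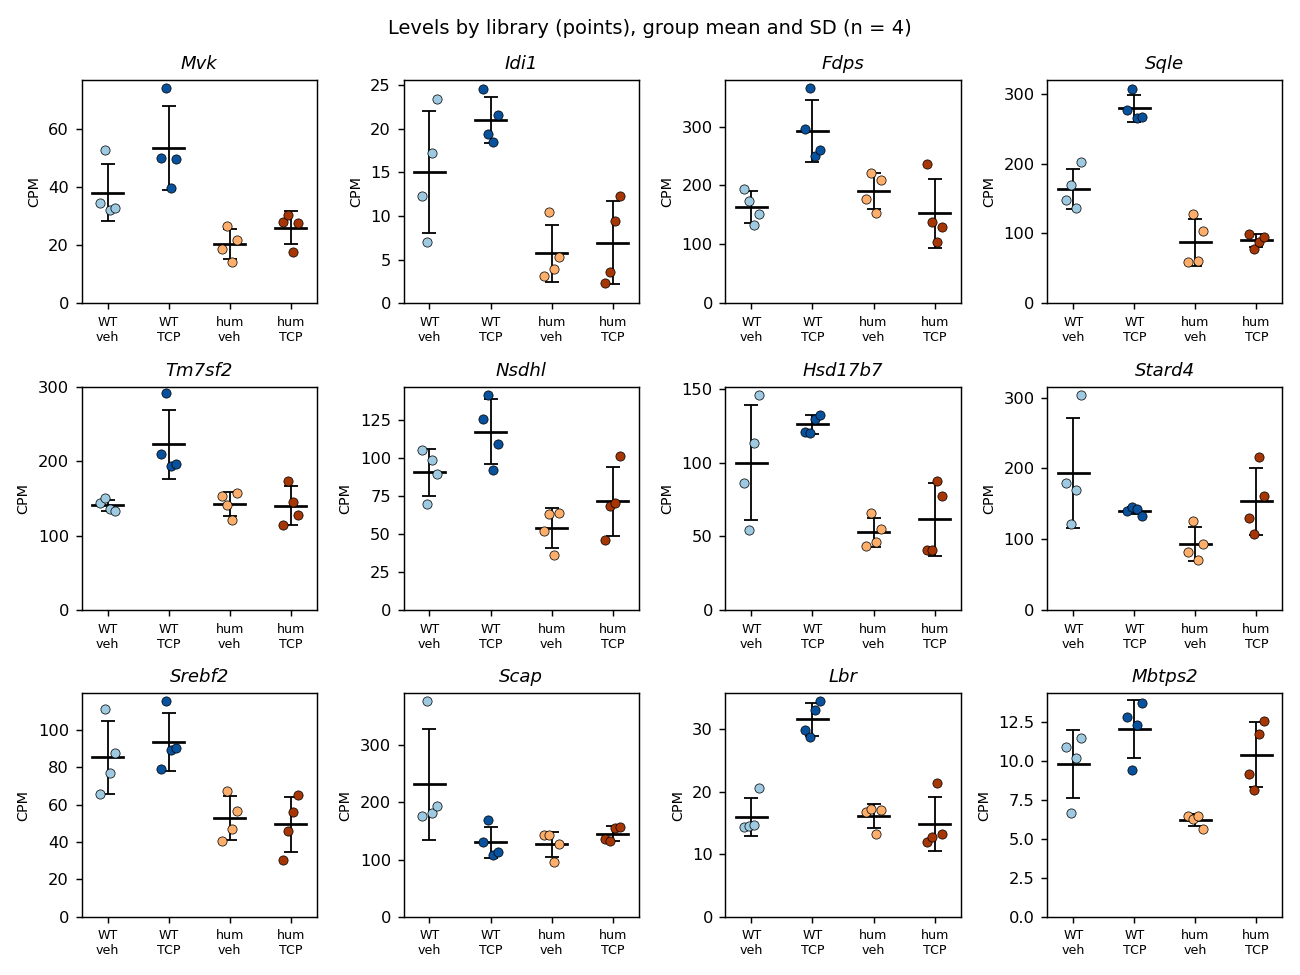
Points are CPM (vertical axis, from 0) in each library for 12 of the genes that passed a test, by group (WT, wild-type; hum, humanized; veh, vehicle; TCP, TCPOBOP), with the mean and SD of 4 libraries as bars. Sqle, Fdps and Lbr are highest in all 4 wild-type TCPOBOP libraries, while Scap is high in 1 wild-type vehicle library at 376 CPM.

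In humanized liver, none of the 27 genes passed for TCPOBOP against vehicle, where 2.52% of all genes tested did, 1.32% upward and 1.19% downward. Unadjusted, 4 of the 27 had p under 0.05, namely Pmvk, Lss, Stard4 and Mbtps2, against 17.9% of all genes tested, and DESeq2 called 1, Mbtps2. In 1 gene, again Mbtps2, the groups did not overlap, against 9.95% of all genes tested. The median log2 difference was -0.05, against 0.02 over all genes, and 12 of the 27 were above 0. Sqle was at 58.7, 128, 61.1 and 103 CPM under vehicle and 99.97, 77.8, 88.2 and 95.3 CPM under TCPOBOP, the treated mice lying inside the range of the controls. Its difference was 0.04 ± 0.22, with a 95% interval from -0.43 to 0.52. Fdps was at 177, 221, 153 and 209.8 CPM under vehicle and 237, 138, 105 and 130.1 CPM under TCPOBOP, with 3 of 4 treated mice below every control and 1 above. Lbr was at 16.8, 17.2, 13.2 and 17.1 CPM under vehicle and 12, 12.8, 21.3 and 13.3 CPM under TCPOBOP. Of 18 clock genes tested in the same mice, 7 were higher and 2 lower with TCPOBOP, where in wild-type liver 1 was lower and none higher. Dbp rose by 4.01 on the log2 scale, from a mean of 4.63 CPM under vehicle to 74.7 CPM under TCPOBOP. Its wild-type means were 53.1 and 46.4 CPM. The part of the clock genes in the sterol gene result was not tested.

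Mbtps2, the site-2 protease that completes SREBP release, came nearest to the threshold in humanized liver. Its levels were 6.43, 6.29, 6.45 and 5.63 CPM under vehicle and 9.15, 8.09, 11.7 and 12.6 CPM under TCPOBOP, without overlap, a difference of 0.75 ± 0.21 (adjusted p = 0.0678). Tm7sf2 was at 153, 140.5, 120.3 and 157 CPM under vehicle and 114, 174, 146 and 127 CPM under TCPOBOP, with overlap. The largest difference downward was that of Pmvk, at -0.67 ± 0.24 (adjusted p = 0.149), and Stard4, a carrier of cholesterol between membranes, was at 0.72 ± 0.26 (adjusted p = 0.152).

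**Figure D3:**
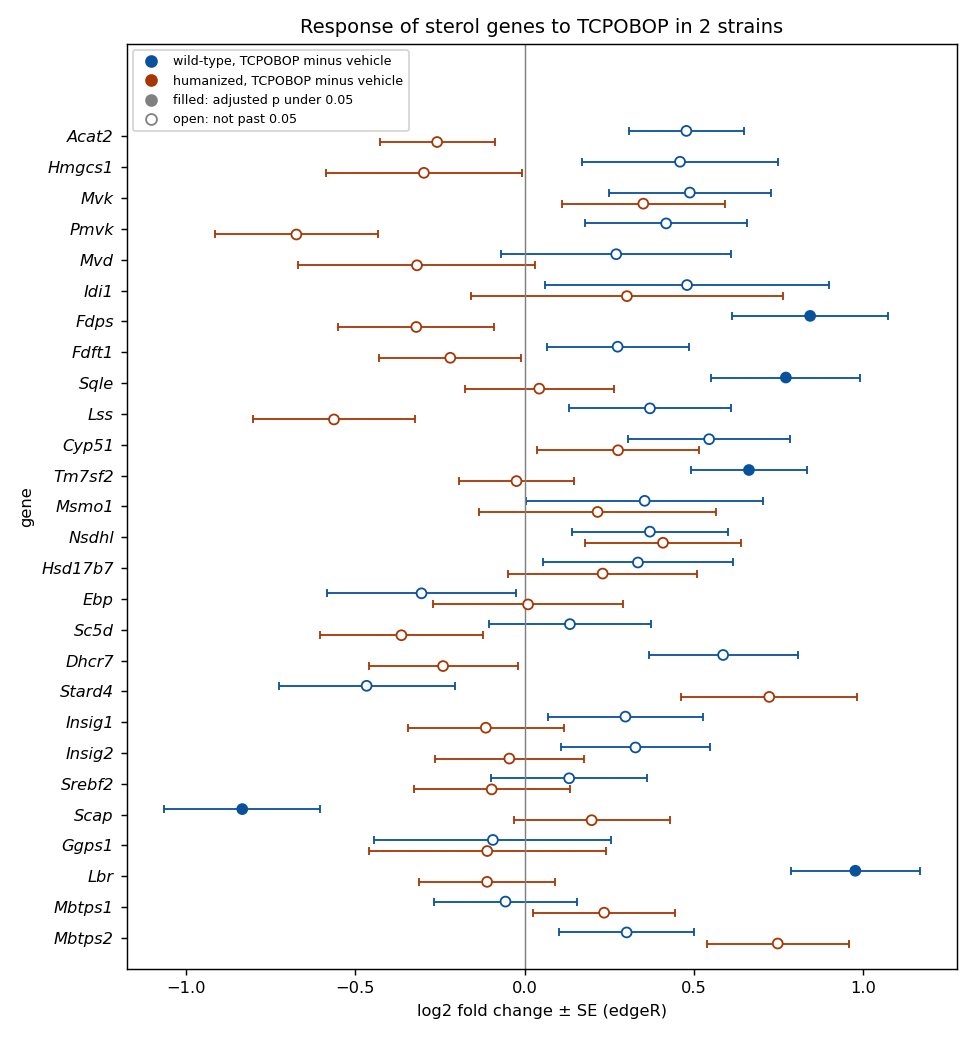
Log2 difference between TCPOBOP and vehicle ± SE from edgeR (horizontal axis) for each of the 27 genes (vertical axis) in wild-type (blue) and humanized (brown) liver, filled where adjusted p was under 0.05. The 5 filled points are all in wild-type liver, and 22 of the 27 blue points against 12 of the 27 brown points lie above 0.

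The difference between the strains' responses was tested directly as an interaction. Fdps and Lbr passed, 2 of 27 (7.41%) against 7.46% of all genes tested, so the share of the 27 was that of the background. Both were lower in humanized liver, where 3.98% of all genes tested were lower and 3.48% higher, and 10 of the 27 had an unadjusted p under 0.05, against 21.2% of all genes. The Fdps response in humanized liver was 1.16 ± 0.32 lower on the log2 scale than in wild-type liver (adjusted p = 0.0333), and that of Lbr 1.09 ± 0.27 lower (adjusted p = 0.0205). Sqle, which rose in wild-type liver, had an interaction of -0.73 (adjusted p = 0.175), so its response was not shown to differ between strains. Over the 27 genes the median interaction was -0.37, against 0.00 over all genes, and 21 were below 0. Every mevalonate enzyme and every enzyme from squalene to lanosterol was below 0, from -1.16 to -0.02, while Stard4 at 1.19 (adjusted p = 0.0565) and Scap at 1.03 (adjusted p = 0.0658) lay on the other side. The count was unstable: it ran from 0 without wild-type TCPOBOP library 4 to 7 without wild-type vehicle library 2, and was 4 without humanized vehicle library 3 and 6 without humanized TCPOBOP library 1. The Fdps call was lost in 12 of 25 other settings and the Lbr call in 3. Of 18 clock genes tested, 5 were higher and none lower in the interaction, and their part was not tested.

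Under vehicle, humanized liver had lower levels of 9 of the 27 genes and higher levels of none. They were Mvk and Idi1 of the mevalonate route, Sqle, the sterol enzymes Nsdhl and Hsd17b7, the carrier Stard4, and the regulators Srebf2, Scap and Mbtps2. Of all genes tested 16.1% differed, 8.95% lower and 7.11% higher, against 33.3% and 0% of the 27. The median log2 difference was -0.46, against 0.00 over all genes. The groups did not overlap in 7 genes, 6 of them lower, against 26.4% of all genes tested, and 11 had an unadjusted p under 0.05, against 34.4%. These comparisons share the wild-type vehicle libraries with the TCPOBOP response of wild-type liver, so Scap, high in 1 of those libraries, entered both calls.

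Mvk, the mevalonate kinase gene, was at 34.6, 52.8, 31.9 and 32.7 CPM in wild-type and 18.6, 26.5, 14.3 and 21.7 CPM in humanized vehicle liver, a difference of -0.91 ± 0.24 (adjusted p = 0.0218) without overlap. Hmgcs1, at 608, 462, 277 and 465 CPM in humanized liver, overlapped wild-type liver and did not pass (-0.50 ± 0.29). Idi1 was at 12.3, 7.04, 17.3 and 23.5 CPM against 3.11, 10.5, 3.92 and 5.32 CPM, with 1 wild-type library inside the humanized range. Its difference of -1.40 ± 0.45 was the largest of the 27 but had a wide error (adjusted p = 0.0446), and the call was lost in 11 of 26 other settings. Sqle in humanized vehicle liver, given above, was below every wild-type control, at -0.90 ± 0.22 (adjusted p = 0.0156).

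Nsdhl and Hsd17b7 act in removing the methyl groups at carbon 4 of the sterol ring. Nsdhl was at 105, 69.5, 98.6 and 89.5 CPM in wild-type and 51.9, 63.3, 36.2 and 63.7 CPM in humanized liver, without overlap (-0.75 ± 0.23, adjusted p = 0.0377). Hsd17b7 was at 85.8, 54.3, 113 and 146 CPM against 43.1, 65.9, 46.4 and 54.9 CPM, where wild-type library 2 fell within the humanized range (-0.93 ± 0.28, adjusted p = 0.0355). Stard4 showed the same layout, with 179.9, 122, 169.5 and 304 CPM against 81.9, 126, 70.4 and 93.3 CPM (-1.06 ± 0.26, adjusted p = 0.0163). In wild-type library 2, which followed GC content, Idi1, Hsd17b7 and Stard4 were each the lowest of their group.

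Srebf2 was at 40.4, 67.5, 47.1 and 56.6 CPM in humanized vehicle liver against the wild-type values above, a difference of -0.69 ± 0.23 (adjusted p = 0.0481) with 1 humanized library inside the wild-type range. Its call was lost in 13 of 26 other settings. Scap was at 143, 142, 95.2 and 126 CPM in humanized vehicle liver, below every wild-type control (-0.87 ± 0.23, adjusted p = 0.0217). Mbtps2 was below the wild-type values of 10.9, 6.66, 10.1 and 11.5 CPM (-0.66 ± 0.21, adjusted p = 0.0418), and Mbtps1 at -0.62 ± 0.21 just missed (adjusted p = 0.0538). The Mbtps2 call was lost in 11 of 26 other settings. Insig1 at 544, 856, 430.0 and 626 CPM and Insig2 at 202, 272, 429 and 340.1 CPM overlapped their wild-type values of 602, 789, 654 and 902 CPM and 379.5, 429.7, 374 and 329 CPM. Neither passed (-0.26 ± 0.23 and -0.28 ± 0.22). Acat2, Pmvk, Fdps, Tm7sf2, Sc5d and Lbr lay between 0.01 and 0.22, and Ebp at 0.65 ± 0.28 was above every wild-type control without passing (adjusted p = 0.115).

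The calls between strains under vehicle depended on which libraries were kept. Without humanized vehicle library 1 or 3 none of the 27 passed, without library 4 of that group 2 did, and without wild-type vehicle library 3 or 4 there were 4. The calls over all genes fell alongside, from 2074 to 621, 770 and 794 without humanized library 1, 3 or 4. The median log2 difference of the 27 stayed below 0 in these fits, at -0.40, -0.35 and -0.53, against -0.46 with all 16 libraries. Without wild-type vehicle library 2 it was -0.27. In humanized vehicle library 3 the 27 genes were on average 0.32 below their group's mean log2 level, with 3 of 27 above it, and in libraries 2 and 4 they were 0.24 and 0.16 above. The strain difference of all genes fell with transcript length (Spearman rho -0.35 across 12103 genes, and -0.36 across the 27). With the trends on length and GC content removed from each library, an alternative chosen after seeing the data, 8 of the 27 passed and Srebf2 did not.

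Other gene groups differed between the vehicle groups in the same mice. Of 6 Kupffer cell markers, 5 were lower in humanized liver, Clec4f at -1.04 and Adgre1 at -2.35 on the log2 scale, and their sums ran from 394 to 773 CPM in wild-type and from 198 to 325 CPM in humanized libraries. Of 6 sinusoidal endothelial markers 1 passed, while all 6 were below 0, with a median of -1.03, and all 6 had an unadjusted p under 0.05. Of 6 stellate cell markers 2 were lower, and of 4 tested erythroid markers 3 were lower. Of 6 hepatocyte markers 1, Alb, was lower, while 3 of the 6 were above 0 and 3 below. These markers summed to 54101 to 90317 CPM in wild-type and 45441 to 55315 CPM in humanized libraries, where Alb alone averaged 49738 and 29019 CPM. Of 18 clock genes tested, 10 differed, 4 higher and 6 lower, Dbp by -3.51 and Nfil3 by 2.14. Their part in the sterol gene result was not tested.

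The comparison of humanized with wild-type liver under TCPOBOP was added after seeing the data. Here 19 of the 27 genes were lower in humanized liver and 1, Ebp, was higher. Of all genes tested 24.6% differed, 12.8% lower and 11.8% higher, against 70.4% lower and 3.7% higher among the 27. The median log2 difference of the 27 was -0.76, against 0.01 over all genes. The lower genes spanned the route: 7 of 8 mevalonate and isoprenoid enzymes, 3 of 3 enzymes from squalene to lanosterol, 6 of 9 enzymes after lanosterol and 3 of 6 regulators. In 17 of the 27, every humanized library lay below every wild-type library, where 27.4% of all genes tested had no overlap in either direction. An unadjusted p under 0.05 was reached by 20 of the 27, against 38.1% of all genes.

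**Figure D4:**
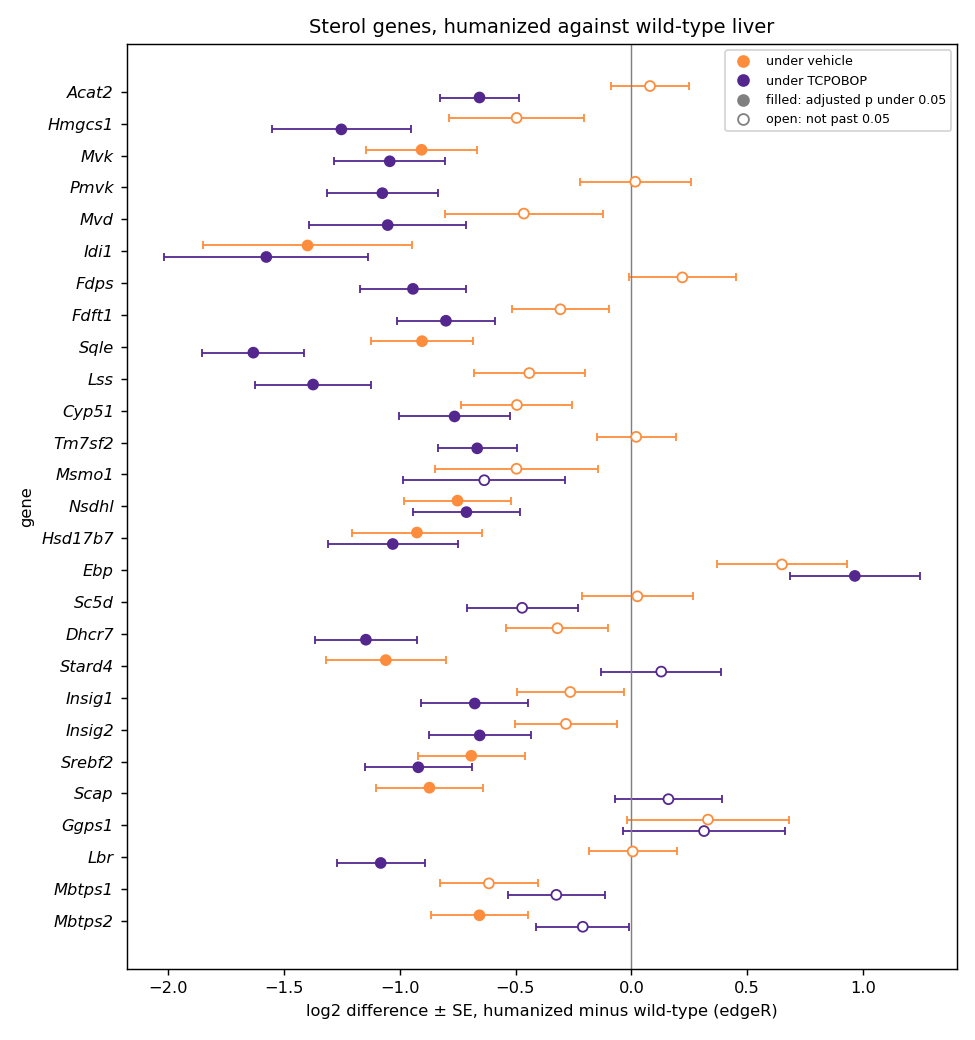
Log2 difference between humanized and wild-type liver ± SE from edgeR (horizontal axis) for each of the 27 genes (vertical axis) under vehicle (orange) and under TCPOBOP (purple), filled where adjusted p was under 0.05. Under TCPOBOP 23 of the 27 points lie below 0 and 19 of those are filled, against 19 and 9 under vehicle.

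Sqle showed the largest and firmest difference, 3.1-fold lower in humanized TCPOBOP liver (-1.63 ± 0.22, adjusted p = 5.24e-05), with the highest humanized library at 99.97 CPM and the lowest wild-type library at 266 CPM. Idi1, at 2.36, 3.63, 9.42 and 12.3 CPM against 24.5, 19.4, 18.5 and 21.6 CPM, was 2.98-fold lower (-1.58 ± 0.44, adjusted p = 0.0161). Lss, at 56.4, 58.9, 65.2 and 71.6 CPM against 137, 243, 129 and 144 CPM, was 2.59-fold lower (-1.37 ± 0.25, adjusted p = 0.000666). Each of these genes had no overlap between strains.

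Hmgcs1 was at 565, 282, 262 and 365 CPM, below every wild-type TCPOBOP library (-1.25 ± 0.30, adjusted p = 0.0054). Dhcr7, which makes cholesterol or its precursor desmosterol by reducing the ring, was at 84.5, 119, 98.3 and 129 CPM against 238, 309, 209 and 198 CPM (-1.15 ± 0.22, adjusted p = 0.0011). Lbr and Fdps, which had passed the interaction, differed by -1.08 ± 0.19 (adjusted p = 0.000628) and -0.94 ± 0.23 (adjusted p = 0.00625). Mvk was at 27.9, 30.4, 17.6 and 27.7 CPM against 50.03, 73.9, 39.7 and 49.7 CPM, without overlap. Nsdhl overlapped, at 45.8, 68.4, 70.1 and 101 CPM against 126, 142, 92.1 and 109 CPM. Hsd17b7 did not, at 40.5, 40.6, 87.7 and 77.5 CPM against 121, 120.2, 129.9 and 133 CPM. The other lower enzymes, with these included, were Acat2 at -0.66, Mvk at -1.04, Pmvk at -1.08, Mvd at -1.05, Fdft1 at -0.80, Cyp51 at -0.76, Tm7sf2 at -0.67, Nsdhl at -0.71 and Hsd17b7 at -1.03.

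Among regulators, Srebf2 was at 30.6, 46.0, 55.9 and 65.0 CPM in humanized TCPOBOP liver, below every wild-type TCPOBOP library (-0.92 ± 0.23, adjusted p = 0.00766). Insig1, at 502, 453, 758 and 553 CPM against 694, 1152, 929 and 846 CPM, overlapped and passed narrowly (-0.68 ± 0.23, adjusted p = 0.0416). Insig2 was at 253, 418, 299.7 and 233 CPM against 439.8, 479, 528 and 449 CPM, without overlap (-0.65 ± 0.22, adjusted p = 0.038). The calls of Insig1 and Insig2 were lost in 13 and 12 of 26 other settings. Scap, Mbtps1 and Mbtps2 did not pass, at 0.16, -0.32 and -0.21. Scap was at 136, 132, 155 and 158 CPM in humanized TCPOBOP liver, inside the wild-type range. Mbtps2 was at 12.8, 9.39, 12.3 and 13.7 CPM in wild-type TCPOBOP liver, overlapping the humanized values.

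Ebp, the sterol isomerase also known as the emopamil-binding protein, was the sole gene of the 27 that was higher in humanized liver (0.96 ± 0.28, adjusted p = 0.0202). Its levels were 575, 294, 192 and 178 CPM in humanized against 172, 191, 138 and 134 CPM in wild-type TCPOBOP liver, and without humanized library 1 the call was lost, with a difference of 0.50. The 7 genes that did not pass were Msmo1 at -0.63, Sc5d at -0.47, Stard4 at 0.13, Ggps1 at 0.31, Scap, Mbtps1 and Mbtps2. Stard4 was at 129.6, 107, 216 and 160.5 CPM in humanized and 139.7, 145, 142 and 133 CPM in wild-type TCPOBOP liver, the wild-type values lying inside the humanized range. Sc5d nevertheless had every humanized library below every wild-type library.

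Mvk, Idi1, Sqle, Nsdhl, Hsd17b7 and Srebf2 were lower in humanized liver under both vehicle and TCPOBOP. These 6 genes were 66.7% of the 9 lower under vehicle and 31.6% of the 19 lower under TCPOBOP. The matching shares over all genes were not counted, so this overlap does not set the 27 apart. With 1 library left out, 14 to 20 of the 27 passed under TCPOBOP and 0 to 11 under vehicle, as the plot of calls with a library left out shows. Acat2, Hmgcs1, Mvk, Pmvk, Fdps, Sqle, Lss, Tm7sf2, Dhcr7, Lbr and Srebf2 passed in 26 of 26 other settings under TCPOBOP.

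**Figure D5:**
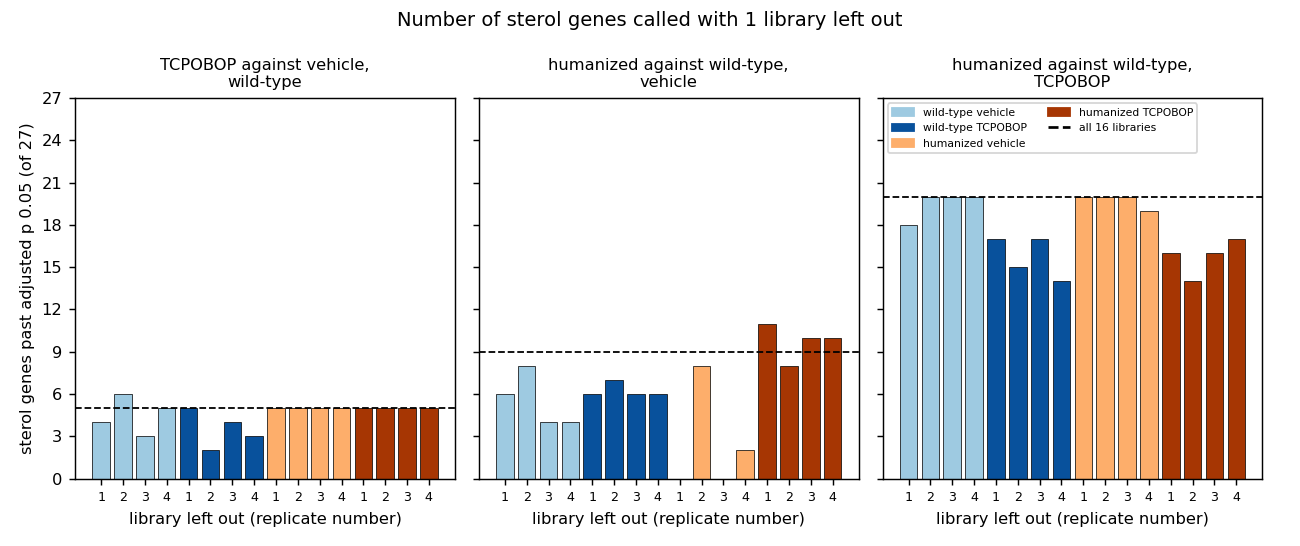
Bars give how many of the 27 genes had adjusted p under 0.05 (vertical axis) when the library on the horizontal axis was left out, coloured by its group, for 3 comparisons, and dashed lines give the number with all 16 libraries. The counts run from 2 to 6 for TCPOBOP in wild-type liver, from 0 to 11 between strains under vehicle and from 14 to 20 between strains under TCPOBOP.

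Cell type and proliferation genes also differed between the TCPOBOP groups. All 12 proliferation genes were lower in humanized liver, with a median of -3.83, and Alb and Ttr were higher. Hepatocyte markers summed to 24244 to 37834 CPM in wild-type and 41304 to 57237 CPM in humanized TCPOBOP libraries, where Alb alone averaged 16881 and 29104 CPM. Of 6 sinusoidal and 6 stellate markers, 3 and 2 were lower, and of 6 Kupffer cell markers none differed (none at an unadjusted p under 0.05). Of 18 clock genes 4 were higher and none lower. Their part in the result was not tested. Across the 27 genes the difference under TCPOBOP followed transcript length with a rho of 0.19, against -0.20 across 12103 genes.

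Other lists showed how far these patterns reached beyond the 27 genes. Of 32 further sterol genes tested, among them genes for transport, esterification, breakdown and electron supply, 5 rose and 5 fell with TCPOBOP in wild-type liver, with a median of -0.02, the same as over all genes. Tmem97, a sterol-responsive membrane protein, rose by 0.96, and Cyb5a, an electron donor to sterol enzymes, by 1.17. Under TCPOBOP, 7 of the 32 were lower in humanized liver and 5 higher, Cyp39a1 at -2.15 and the sterol exporter gene Abcg5 at 1.40.

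These lists were chosen with earlier results known. Of 18 genes of SREBP1 and fatty acid synthesis, 7 were lower and 1 higher in humanized liver under vehicle, with a median of -0.88, and 7 were lower under TCPOBOP, with a median of -0.63, where all genes had medians of 0.00 and 0.01. Fasn, the fatty acid synthase, was at -1.96 and -2.05 in the 2 comparisons and Elovl6, an elongase, at -0.92 and -1.42. In wild-type liver the same list had 2 genes that rose with TCPOBOP, Fads1 by 1.00 and Elovl6 by 0.89, and 1 that fell, Elovl5 by 1.16. Of 19 genes of the isoprenoid branch, none changed with TCPOBOP in either strain, where 1 had an unadjusted p under 0.05 in each. In that list 2 were lower and 1 higher in humanized liver under vehicle, and 2 were lower under TCPOBOP, Fntb at -0.75 among them. With the length and GC trends removed, the counts under TCPOBOP became 3 higher and none lower.

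Within groups, the 27 genes moved together to a small degree. Over 351 pairs the mean Pearson correlation of log2 CPM deviations from the group mean across the 16 libraries was 0.18, against 0.00051 over all pairs of tested genes, as a description of libraries that share depth and base composition trends. Pairs ranged from -0.78 for Scap and Ggps1 to 0.92 for Idi1 and Hsd17b7. Lss, Sqle and Insig1 had the highest mean correlation with the other genes (0.36, 0.35 and 0.34), and Insig2 had the lowest (-0.22). Ebp, Ggps1 and Mbtps2 also had means below 0.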

How the data were processed

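Polyadenylated liver RNA of 16 mice in 4 groups of 4 was extracted with Trizol and made into NEBNext libraries, per the labels' protocols. The deposited table holds counts, whole numbers for 40458 RefSeq transcript entries in 16 libraries, and STAR, DESeq2 and mm10 are named per the submitters' processing notes. Versions, the counting program, annotation release, strandedness and the handling of shared reads are not stated in these sources, so reads of a gene and an antisense partner cannot be told apart. Of the counts of 20 or more, 74.9% were even, so the deposited counts may be halved and are used as given.

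Entries were joined to symbols through RefSeq (40219) and GENCODE (125), and 114 had no symbol (0.227% to 0.582% of a library's counts). Each gene was represented by its entry with the highest mean count, since entries of a gene share reads, giving 24970 genes, 7618 with more than 1 entry. Ggps1, with 9 entries, had the least even entries among the 27. edgeR 4.0.16 (limma 3.58.1, R 4.3.3) was fitted to all 16 libraries with a mean per group, filterByExpr, TMM and two-sided quasi-likelihood F tests, with Benjamini-Hochberg adjustment over 12913 genes in each comparison and a threshold of 0.05. The fit had 12 residual degrees of freedom, and its common biological variation was 0.259 as a coefficient. The script was tested on simulated data. CPM are scaled by TMM over gene-level totals, of which the smallest was 6831626. Nothing in the labels says whether mice came from separate litters or batches.

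The 27 genes and the other lists were chosen with earlier results of these data known. All 27 are named. Those that passed in a comparison fixed with the design, and Srebf2, Hmgcs1, Sqle, Insig1 and Insig2, have their value in every library. Of other lists, at most the 4 called genes with the smallest p per comparison are named, and some of these are not reported here. Alternatives were DESeq2 1.42.0, its size factors in edgeR, no filter, a filter at a mean of 5 CPM, the mean of a gene's entries, the replicate number as a block, a fit of only the groups compared, thinning to the smallest library, and each library left out. After seeing the data, 2 more were added, leaving out both wild-type libraries numbered 2 and removing trends on transcript length and GC content, as was the comparison of strains under TCPOBOP. Motifs were searched in the RefSeq promoter table of GRCm38.p6.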

Additional observations from a re-analysis of the deposited data

Results flagged for a closer look

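A library stood apart from the other 3 of its group in 9 of 108 groups of the 27 genes by Dixon's test, which divides the gap to the nearest library by the group's range, where chance gives about 5%. In 6 of these it was a wild-type library numbered 2. Under vehicle, Mvk was at 52.8 CPM in that library against 31.9 to 34.6 CPM in the others, and Scap at 376 CPM against 176 to 193 CPM. Under TCPOBOP, Pmvk was at 135 CPM against 70.8 to 79.4 CPM, Lss at 243 CPM against 129 to 144 CPM, Tm7sf2 at 291 CPM against 193 to 209 CPM, and Mbtps1 at 89.8 CPM against 76.6 to 78.8 CPM. These libraries are the 2 whose values followed GC content, and the part of that trend in each gene was not tested.

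Lbr had a library apart in 3 groups: wild-type vehicle library 4 at 20.6 CPM against 14.4 to 14.6 CPM, humanized vehicle library 3 at 13.2 CPM, below 16.8 to 17.2 CPM, and humanized TCPOBOP library 3 at 21.3 CPM against 12 to 13.3 CPM. The response to TCPOBOP differed between strains for Fdps, at -1.16 on the log2 scale (adjusted p = 0.0333), and Lbr, at -1.09 (adjusted p = 0.0205), by edgeR's interaction test.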

How the results depend on the processing

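The 36 calls of single genes kept their direction under every alternative run. Of the 27 genes, 5 passed for TCPOBOP in wild-type liver, 8 with the replicate block and 3 without both wild-type libraries numbered 2. Leaving out 1 library gave 2 to 6. It gave 2 without TCPOBOP library 2 and 3 without TCPOBOP library 4 or vehicle library 3. In humanized liver none passed, against 1 (Mbtps2) with DESeq2, without both wild-type libraries numbered 2 and with the length and GC offset, and 0 to 1 with a library left out. For the strain difference under vehicle, 9 passed, against 0 to 11 with a library left out. For the interaction, 2 passed, against 1 after thinning, 6 with DESeq2, 5 with the offset and 0 to 7 with a library left out. Under TCPOBOP 20 passed, against 14 to 20 with a library left out, 20 with the replicate block and 19 after thinning. In that comparison a fit of only these groups gave 16 lower and none higher. The offset gave 15 lower and 1 higher, and leaving out both wild-type libraries numbered 2 gave 16 lower and 1 higher. The cause of these shifts was not tested.

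Replicate numbers were not taken to pair the samples, since not every pair correlated above 0.1: same-numbered wild-type libraries correlated at 0.0998 to 0.581 in their deviations, humanized ones at -0.244 to 0.0724, and not every sample correlated best with its own number. With the replicate block Acat2 (adjusted p = 0.0449), Mvk (0.0419) and Dhcr7 (0.0393) also passed for TCPOBOP in wild-type liver, and the counts were 8, 0, 8, 3 and 20 for the responses of wild-type and humanized liver, the strain difference under vehicle, the interaction and the strain difference under TCPOBOP.

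Over all genes, the split of calls into higher and lower moved by over 10 points with the offset: 1046 and 645 became 1179 and 1349 in wild-type liver, 171 and 154 became 554 and 301 in humanized liver, 449 and 514 became 1193 and 667 in the interaction, and 1527 and 1648 became 2799 and 1529 between strains under TCPOBOP. DESeq2 gave 483 and 282 in humanized liver. Total calls there were 325, against 765 with DESeq2, 658 without both wild-type libraries numbered 2, 855 with the offset, 176 with the 5 CPM filter, 182 with only these groups and 209 with the block. Leaving out 1 library gave 74 (without humanized vehicle library 4) to 960 (649 higher and 311 lower, without humanized TCPOBOP library 1). Interaction calls were 963, against 1481, 1462 and 1860 with DESeq2, without both wild-type libraries numbered 2 and with the offset, and 575 (without wild-type TCPOBOP library 4) to 1782 (without humanized TCPOBOP library 1) with 1 library left out. Over all genes, calls also fell from 1691 to 1068 in wild-type liver and from 3175 to 1963 between strains under TCPOBOP without wild-type TCPOBOP library 4. Between strains under vehicle they were 1291 without wild-type vehicle library 1 and 3425 without humanized TCPOBOP library 1. The median of all genes moved to 0.105 in the interaction and 0.119 between strains under TCPOBOP with the offset.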
